A study of Mus musculus with 11 samples.

Results

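The 741 regions described here were bound by IRF4 in mouse B cells after 1 day of stimulation, and were absent from the day 3 IRF4 list and from both PU.1 lists. They were chosen by the peak calls themselves: of the 2496 lines of the deposited day 1 IRF4 list, these had no peak position of the day 3 IRF4 list, the day 1 PU.1 list or the day 3 PU.1 list less than 200 bp from their own. Peak calls, enrichment and width are therefore given as descriptions. Tests were run only on DNA sequence and genomic location, which the choice did not use directly. The cells were resting mature B cells from the spleens of B1-8i mice (spelled Bi-8i in the source names), whose antibody gene is targeted to recognise the hapten NP, on the 129 strain background. All were cultured at 0.5 M cells/mL with the antigen NP-Ficoll at 0.01 ng/mL, the cytokines IL-5, IL-4 and IL-2, and CD40L, for 1 day (activated cells, before differentiation) or 3 days (after differentiation into plasma cells, as the series describes it). Chromatin immunoprecipitation with sequencing (ChIP-seq), in which an antibody recovers the DNA bound by a protein, was done with anti-Irf4 (Santa Cruz, sc-6059) in 3 libraries per day and with anti-PU.1 in 2 libraries per day. There was no unstimulated group, and peaks were called against a single input, made by pooling DNA of 2 B cell preparations (peripheral or immature). A ChIP-seq peak list cannot check the labelled cell type against marker expression.

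IRF4 is a transcription factor induced by antigen receptor signalling, and it is known in B cells for roles in activation, class switching, the germinal centre and plasma cell differentiation. It binds DNA weakly alone and is known to bind with partners: with the Ets factors PU.1 or Spi-B on Ets-IRF composite elements, with AP-1 factors such as BATF and JunB on AP-1-IRF composite elements, and as a dimer on interferon-stimulated response elements (ISREs). PU.1, an Ets factor of myeloid and B cells, is the partner that these regions were selected to lack in the deposited lists.

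The following reference sequences (mm9, plus strand, 5′ to 3′) are shown because they carry the motifs on which the comparisons turn. Capitals mark the motif, with 35 bases on each side. The first set holds AP-1-IRF composite elements, searched as 2 arrangements on both strands: GAAATGANTCA, where the IRF half-site GAAA touches the AP-1 site, and TTTCNNNNTGANTCA, where the half-site faces away with 4 bases between them. N is any base.
Blk (chr14:64028089-64028320, intron of Blk, a Src-family kinase of the B cell receptor): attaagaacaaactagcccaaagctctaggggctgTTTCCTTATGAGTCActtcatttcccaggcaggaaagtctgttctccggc
Il2ra (chr2:11566924-11567221, intron of Il2ra, the IL-2 receptor alpha chain): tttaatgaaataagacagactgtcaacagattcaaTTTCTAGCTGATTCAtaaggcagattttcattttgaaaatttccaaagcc
Cd83 (chr13:43856517-43857099, intergenic, nearest start Cd83, an activation marker of B cells): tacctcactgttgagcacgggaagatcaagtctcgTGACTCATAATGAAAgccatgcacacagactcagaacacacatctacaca
Ildr1 (chr16:36684761-36684990, intergenic, nearest start Ildr1 and within 20 kb of Cd86): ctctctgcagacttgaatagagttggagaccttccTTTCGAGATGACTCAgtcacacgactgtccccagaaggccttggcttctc
Notch1 (chr2:26358293-26358843, 0.923 kb downstream of the Notch1 start): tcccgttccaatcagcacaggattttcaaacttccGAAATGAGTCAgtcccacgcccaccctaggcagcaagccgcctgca
Rasal1 (chr5:121121876-121122237, intron of Rasal1, a Ras GTPase-activating protein): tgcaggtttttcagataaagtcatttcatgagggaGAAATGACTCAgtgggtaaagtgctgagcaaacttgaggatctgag
Aff4 (chr11:53160840-53161204, intergenic, 3.41 kb upstream of Aff4): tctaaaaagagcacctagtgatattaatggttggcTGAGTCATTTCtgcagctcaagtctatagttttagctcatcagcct

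The next set shows AP-1 sites (TGANTCA) with no composite arrangement, which was the more common kind of AP-1 site in these regions.
Ifngr1 (chr10:19249552-19249847, intergenic, nearest start Ifngr1): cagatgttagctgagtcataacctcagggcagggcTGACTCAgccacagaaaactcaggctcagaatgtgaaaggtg
Zbtb20 (chr16:43253274-43253568, intron of Zbtb20, a zinc finger repressor of the plasma cell list): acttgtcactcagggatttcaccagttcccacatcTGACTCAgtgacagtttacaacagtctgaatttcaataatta
Aebp2 (chr6:140569148-140569690, intergenic, 1.40 kb upstream of Aebp2): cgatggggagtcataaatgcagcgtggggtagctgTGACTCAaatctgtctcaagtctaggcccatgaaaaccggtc

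The last set shows the less common IRF elements: ISREs (GAAANNGAAA) near Il2rb and Isg15, and the Ets-IRF composite element (GGAANNGAAA) near Itgam. The Itgam region lay 254 bp from a PU.1 list peak, and day 3 IRF4 replicate 3 also called it, at 29.2.
Il2rb (chr15:78340609-78340897, intergenic, 15.3 kb upstream of Il2rb): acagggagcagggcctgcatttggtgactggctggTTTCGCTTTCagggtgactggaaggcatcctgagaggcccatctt
Isg15 (chr4:155574818-155575328, promoter, 0.128 kb upstream of Isg15): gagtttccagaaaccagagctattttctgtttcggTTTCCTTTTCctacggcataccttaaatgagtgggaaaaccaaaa
Itgam (chr7:135192504-135192788, intergenic, 13.5 kb upstream of Itgam): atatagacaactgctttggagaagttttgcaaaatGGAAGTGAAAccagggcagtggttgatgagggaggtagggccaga

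Day 1 IRF4 calls of these regions rested almost wholly on 2 of the 3 libraries. Replicate 1 had 825 deposited peaks, against 9326 in replicate 2 and 8929 in replicate 3. Of the 741 regions, 56 (7.56%) were called in replicate 1, 735 (99.2%) in replicate 2 and 732 (98.8%) in replicate 3. Of the whole day 1 list, the same libraries called 30.7%, 96.7% and 96.0%. Of the 741 regions, 685 (92.4%) were called in replicates 2 and 3 but not in replicate 1. Only 41 regions (5.53%) were called in all 3 day 1 libraries. Rebuilding the lists without replicate 2 left 47 such regions and without replicate 3 left 50, whereas 726 were found without replicate 1. The files used here hold peak lists without read counts, so the sequencing depth behind these differences is unknown.

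Absence from the day 3 list did not mean absence from every day 3 library. A peak less than 200 bp away was called in exactly 1 day 3 IRF4 library for 230 of the 741 regions (31.0%, 95% Wilson interval 27.8 to 34.5), against 66.2% of the whole day 1 list called in 1 or more. The lists were also rebuilt with 1 library left out, which was then not counted. The share was 61.7% without day 1 replicate 2, 60.0% without day 1 replicate 3 and 22.7% without day 3 replicate 1. Without any other it was 29.2% to 33.2%. None of the 741 regions was called in 2 or more day 3 IRF4 libraries. That was close to given by how the lists were built, since a line entered a list when 2 libraries shared it. It was not certain, because 2 peaks near a region could still lie more than 200 bp from one another. By library, 158 regions (21.3%) were called in day 3 replicate 1, 13 (1.75%) in replicate 2 and 59 (7.96%) in replicate 3. These libraries called 54.4%, 33.8% and 45.3% of the whole day 1 list, and had 2784, 1408 and 5595 peaks in all. In the day 3 library that called them, the median enrichment over input was 21.7, 19.9 and 22.5 in replicates 1, 2 and 3, on the authors' fold scale. The lowest values in those libraries were 16.4, 16.9 and 15.04, so the median day 3 call of these regions lay not far above the lowest that was deposited.

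PU.1 peaks from single libraries lay at 139 of the 741 regions (18.8%, 95% Wilson interval 16.1 to 21.7), against 69.0% of the whole day 1 list. Leaving out 1 PU.1 library changed both the choice and the share, which was 7.54% and 8.33% without day 3 PU.1 replicates 1 and 2, and 11.2% and 12.8% without day 1 PU.1 replicates 1 and 2. In these rebuilds all peaks of the library left for that day formed its list, and the library left out was not counted. Only PU.1 calls of the other day could then remain, so a lower share was close to given. Without day 1 IRF4 replicate 2 or 3 the share was 25.5% or 26.0%. Of these 139, 93 regions were called in 1 PU.1 library, 45 in 1 library of each day and 1 in 3 libraries. The day 1 PU.1 replicates 1 and 2 called 23 (3.10%) and 55 (7.42%) of the regions, and the day 3 replicates called 69 (9.31%) and 39 (5.26%). Of the whole day 1 list, these libraries called 60.0%, 60.9%, 55.1% and 61.4%. The median PU.1 enrichment of these calls ranged from 21.0 to 26.3 over the 4 libraries, while single calls reached 350.2 in day 1 replicate 2. A call in both a day 3 IRF4 library and a PU.1 library was found for 58 regions (7.83%). In the remaining 430 regions (58.0%), only day 1 IRF4 libraries had a call, and 14 of them were called in all 3.

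**Figure D1:**
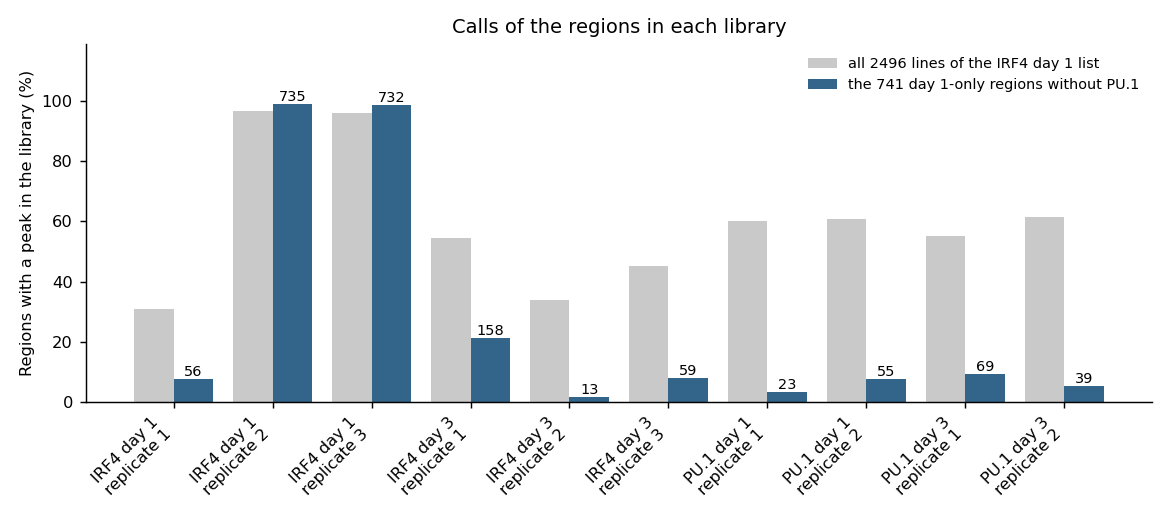
Percentage of regions (y axis) with a peak less than 200 bp away in each of the 10 libraries (x axis), for the whole day 1 IRF4 list (grey bars) and for the 741 day 1-only regions without PU.1 (blue bars, with the number of regions above). Day 1 replicates 2 and 3 called 735 and 732 of the regions, and day 1 replicate 1 called 56, fewer than the 158 called by day 3 replicate 1.

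Called in all 3 day 1 libraries and in no other library were 14 regions. The first among them by enrichment in replicate 1 lay 26.3 kb upstream of Ppp4r2 (chr6:100757246-100757581), with enrichments of 38.8, 103.4 and 107.1 in replicates 1, 2 and 3. An intron of Bach2, which encodes a repressor that restrains plasma cell differentiation, held another (chr4:32511514-32511797), with 28.4, 97.3 and 116.4. The Rasal1 region shown above had 27.3, 82.3 and 79.5. The Ifngr1 region, whose nearest start is the gamma interferon receptor 62.1 kb away, had 21.4, 57.3 and 22.5 and held 3 AP-1 sites in its 200 bp window. In each of these 4 regions replicate 1 gave the lowest value, and at the Ifngr1 region replicates 1 and 3 were close to one another. An AP-1 site was present in 7 of the 14.

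Strong day 1 calls were not always restricted to day 1 libraries. Among lines copied from replicate 2, the highest enrichment was 135.7 in an intergenic region 14.2 kb upstream of B4galt5 (chr2:167188633-167189031), which day 3 replicate 1 also called at 29.4. The Cd83 region was the highest of them with calls in day 1 IRF4 libraries only, with 106.6 in replicate 2 and 81.2 in replicate 3. A region in an intron of Ccnd3, a D-type cyclin of dividing germinal centre B cells (chr17:47652481-47652701), had day 1 values of 26.2, 146.6 and 103.3, and was also called at 27.2 in day 3 IRF4 replicate 1, 27.2 in day 1 PU.1 replicate 2 and 22.8 in day 3 PU.1 replicate 2. Over all regions copied from replicate 2, the median enrichment was 34.6 (range 20.9 to 135.7), and it was 37.9 in the other lines copied from that library. For regions copied from replicate 1 the medians were 24.95 and 28.9.

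The 200 bp limit fell in a thinly filled part of the distance range. Just inside the choice were regions 203 bp (nearest start Cops7a, enrichment 21.5), 204 bp (D16Ertd472e, 38.1) and 213 bp (Map3k14, 48.0) from a peak of another list. Just outside were lines 196 bp (Slc44a3, enrichment 35.2), 191 bp (Ezr, 31.0) and 189 bp (Sgk3, 23.9) away. Of the 2496 day 1 lines, 1419 had such a peak within 50 bp and 21 at 150 to 200 bp. Absence of a PU.1 peak at the IRF4 position did not place the regions far from PU.1: 117 (15.8%) lay within 1 kb and 446 (60.2%) within 10 kb of a PU.1 list peak. Within 10 kb of a day 3 IRF4 list peak lay 92 (12.4%), and 44 (5.94%) lay within 10 kb of another of the 741 regions. The PU.1 lists held 21966 (day 1) and 21382 (day 3) lines, and the day 3 IRF4 list held 1964. Shares by distance to these lists therefore cannot be set against one another. The same shares were not computed for the other day 1 lines.

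AP-1 sites were the leading sequence feature of these regions. The motif TGANTCA, on either strand, was present in the 200 bp around the peak position in 332 of 741 regions (44.8%), against 8.23% of windows of the same length 2 kb to the lower-coordinate side of the same peaks. The difference of 36.6 percentage points passed an exact binomial test on regions where only 1 of the 2 windows held the site (two-sided, Benjamini-Hochberg adjusted p = 2.87e-52 over 17 motifs and the union of the 2 AP-1-IRF arrangements). In day 1-only regions with PU.1, of which there were 652, AP-1 sites were present in 21.3%. The difference of 23.5 points (95% interval 18.6 to 28.2) passed Fisher's exact test (two-sided, adjusted p = 3.15e-19 over 54 motif comparisons). Without day 1 replicate 3, which left 50 regions, it was 21.8 points with an adjusted p of 0.141 by the same test.

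AP-1 content was not distinguished between these regions and the 228 IRF4 regions without PU.1 that were on the lists of both days. The share in the latter was 47.8%, a difference of -3.003 points with a 95% interval from -10.4 to 4.33 (Fisher's exact test, adjusted p = 0.892). A p that misses the threshold does not show that the classes are alike. Against the 246 day 3-only IRF4 regions without PU.1, of which 32.9% held an AP-1 site, the share was 11.9 points higher (95% interval 4.83 to 18.5, Fisher's exact test, adjusted p = 0.00798). That call did not hold in windows of 100 bp (7.45 points, Fisher's exact test, adjusted p = 0.192) or in the stronger 50% of lines (12.0 points, adjusted p = 0.312). It was also lost when day 1 replicate 2 or 3, day 3 replicate 2 or 3, or day 3 PU.1 replicate 1 was left out (5.40 to 12.0 points). The p-values compare regions of these lists, not cultures or animals, and the labels do not say whether replicates were separate cultures or animals.

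Centring at the peak was sharp for AP-1. Within 500 bp of the peak positions there were 639 AP-1 sites, and 282 (44.1%) of them were within 50 bp. Runx sites (TGTGGT) had 112 of 761 (14.7%) within 50 bp, and ISREs had 41 of 168 (24.4%). A control word, AAAGNNAAGG, which is the Ets-IRF composite element read backwards without complement and so has the same composition, had 6 of 85 (7.06%).

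**Figure D2:**
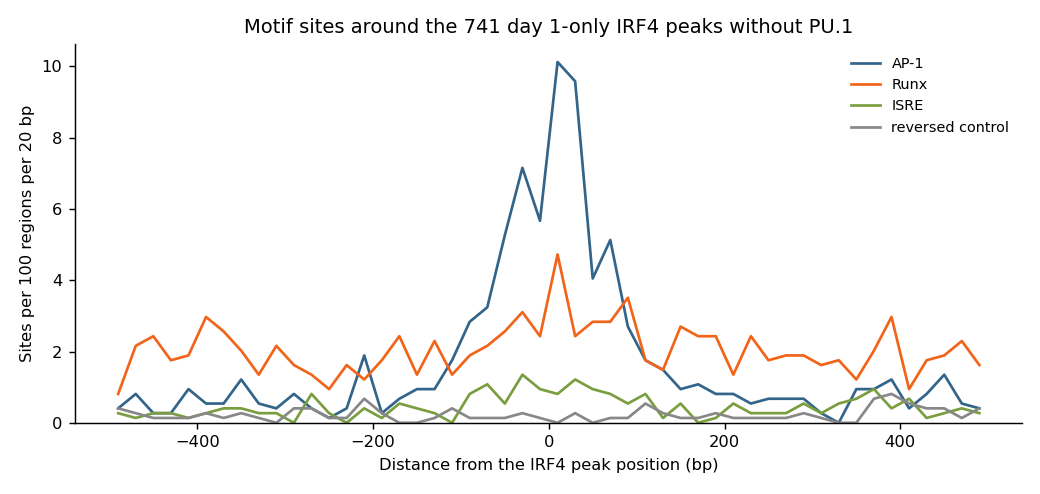
Sites per 100 regions in bins of 20 bp (y axis) against the distance of the site from the IRF4 peak position in bp (x axis), for AP-1 sites, Runx sites, ISREs and the reversed control word in the 741 regions. AP-1 sites peaked at the centre, with 282 of 639 within 50 bp, whereas the control word had 6 of 85 there.

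AP-1-IRF composite elements made up a minority of the AP-1 sites. Every such element contains an AP-1 site. One or both arrangements were present in 54 regions (7.29%), which was 16.3% of the regions with an AP-1 site, against 1 flank (0.135%; adjusted p = 2.80e-14, exact binomial test). The excess over the flanks did not pass without day 1 replicate 2 (14.9 points, adjusted p = 0.141, exact binomial test) or replicate 3 (10.0 points, adjusted p = 0.562), or in the 56 regions copied from replicate 1 (12.5 points, adjusted p = 0.141). The touching arrangement was found in 31 regions and the one with 4 bases between in 23. The share was higher than the 1.99% of day 1-only regions with PU.1 by 5.29 points (95% interval 3.13 to 7.55, Fisher's exact test, adjusted p = 2.40e-05). That call was lost in the stronger 50% of lines (5.01 points, Fisher's exact test, adjusted p = 0.222) and without day 1 replicate 3 (8.99 points, adjusted p = 0.178). AP-1 sites were themselves more common here than in that class, so this difference is not separate from the AP-1 difference. Among regions with an AP-1 site, the element was in 54 of 332 here and in 13 of 139 with PU.1. It was in 28 of 109 both-day and 16 of 81 day 3-only regions without PU.1. These counts have no test. Both-day regions without PU.1 held the element in 12.3%, and the difference of -4.99 points (95% interval -10.2 to -0.786) did not pass (Fisher's exact test, adjusted p = 0.0942). It passed when day 1 replicate 1 (adjusted p = 0.0353) or day 1 PU.1 replicate 2 (adjusted p = 0.0476) was left out, or when peaks under 100 bp apart were taken as shared (adjusted p = 0.0353), in Fisher's exact test.

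Spacing between AP-1 sites and IRF half-sites favoured a few arrangements. Of the 410 AP-1 sites in the windows, 34 (8.29%) had GAAA touching and reading towards the site, and 23 (5.61%) had it 4 bases away and reading away. Among the 40 other arrangements with gaps of 0 to 20 bases, the median was 1.46% of sites and the highest was 6.10% (25 sites), for a half-site reading away with a gap of 6 bases. In the flanks of all day 1 IRF4 lines, which held 324 AP-1 sites, these 3 arrangements were at 2.16%, 1.23% and 1.54%. In day 1-only regions with PU.1, which held 154 AP-1 sites, they were at 4.55%, 3.90% and 3.25%. The highest there was a half-site reading towards the site with a gap of 1 base (6.49%, against 2.44% here). The touching and 4-base arrangements were those already searched as motifs. The gap of 6 was singled out after its value was seen and has no test.

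**Figure D3:**
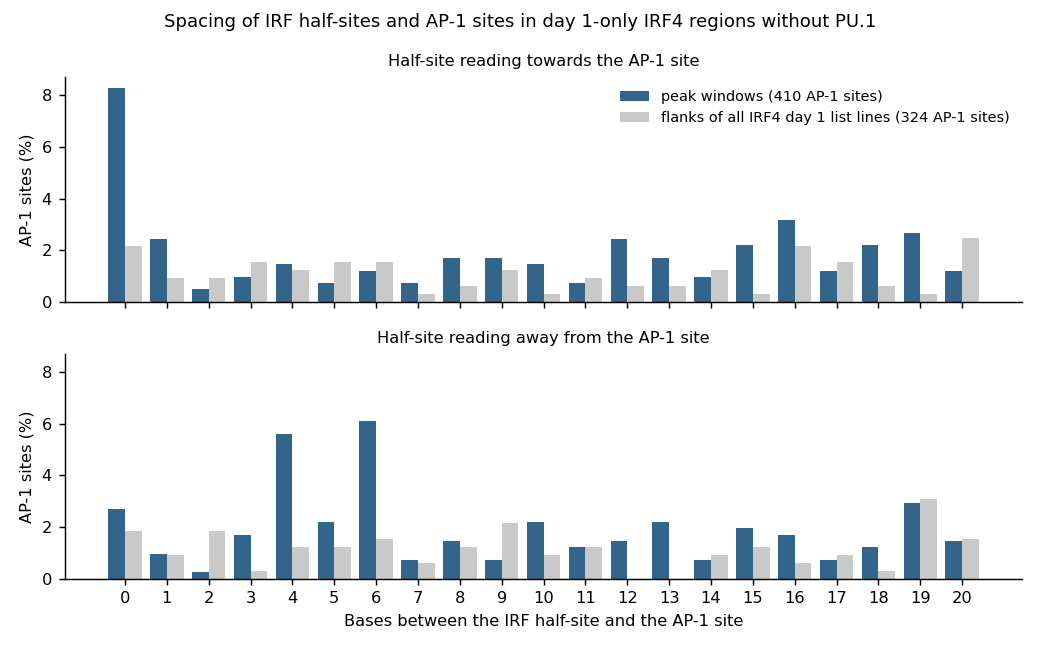
Percentage of AP-1 sites (y axis) with an IRF half-site at each gap from 0 to 20 bases (x axis), for half-sites reading towards (upper panel) or away from (lower panel) the AP-1 site, in the windows of the 741 regions (blue, 410 sites) and in flanks of all day 1 IRF4 list lines (grey, 324 sites). The highest bars were the touching arrangement (8.29%) and the gaps of 6 (6.10%) and 4 (5.61%) in the away direction.

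The middle base of the AP-1 site was C or G in 331 of 410 sites (80.7%) of these regions. It was C or G in 122 of 154 (79.2%) of the day 1-only regions with PU.1, in 121 of 130 (93.1%) of the both-day regions without PU.1 and in 69 of 84 (82.1%) of the day 3-only ones. These shares were looked at after the other AP-1 values were known and have no test of their own. Counting only AP-1 sites with C or G in the middle, the difference from both-day regions was -7.66 points (Fisher's exact test, adjusted p = 0.176).

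Ets motifs were rarer here than at day 1-only regions with PU.1. The classes were separated by PU.1 peaks, so a lower share of PU.1 motifs was close to given by the choice. These differences therefore describe the classes and add no independent support. The Ets-IRF composite element was present in 19 regions (2.56%), against 1.48% of flanks (adjusted p = 0.258, exact binomial test) and 26.4% of day 1-only regions with PU.1. The difference from the latter was -23.8 points (95% interval -27.4 to -20.3, Fisher's exact test, adjusted p = 8.40e-40). The PU.1 site GAGGAAG, whose GGAA can be that of an Ets-IRF composite element, was in 6.88% of regions, 6.07% of flanks and 21.6% of regions with PU.1, a difference of -14.7 points from the latter (Fisher's exact test, adjusted p = 1.81e-14). That call was lost without day 1 replicate 2 (-17.6 points, Fisher's exact test, adjusted p = 0.0748) or 3 (-16.2 points, adjusted p = 0.153) and in lines copied from replicate 1 (-16.5 points, adjusted p = 0.0847). Among the 139 regions that a PU.1 library called, 2.16% held the composite element and 10.8% the PU.1 site, against 2.66% and 5.98% of the 602 others.

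ISREs set the regions apart from those bound on day 3 alone. They were present in 59 regions (7.96%), against 3.37% of flanks (exact binomial test, adjusted p = 4.48e-04) and 29.3% of day 3-only regions without PU.1. The difference from the latter was -21.3 points (95% interval -27.5 to -15.5, Fisher's exact test, adjusted p = 2.17e-14). The other 2 classes were not told apart from these regions by ISREs. Both-day regions without PU.1 held them in 11.8% (-3.88 points, Fisher's exact test, adjusted p = 0.280). Day 1-only regions with PU.1 held them in 5.83% (2.13 points, Fisher's exact test, adjusted p = 0.418). The excess over the flanks was 1.85 points in the stronger 50% of lines and no longer passed (exact binomial test, adjusted p = 0.503). It was 0 points without day 1 replicate 2, without replicate 3, and in the 56 regions copied from replicate 1. Both an AP-1 site and an ISRE were present in 19 regions. None of AP-1, ISRE and the Ets-IRF composite element was found in 360 regions (48.6%) by these letters in this window.

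**Figure D4:**
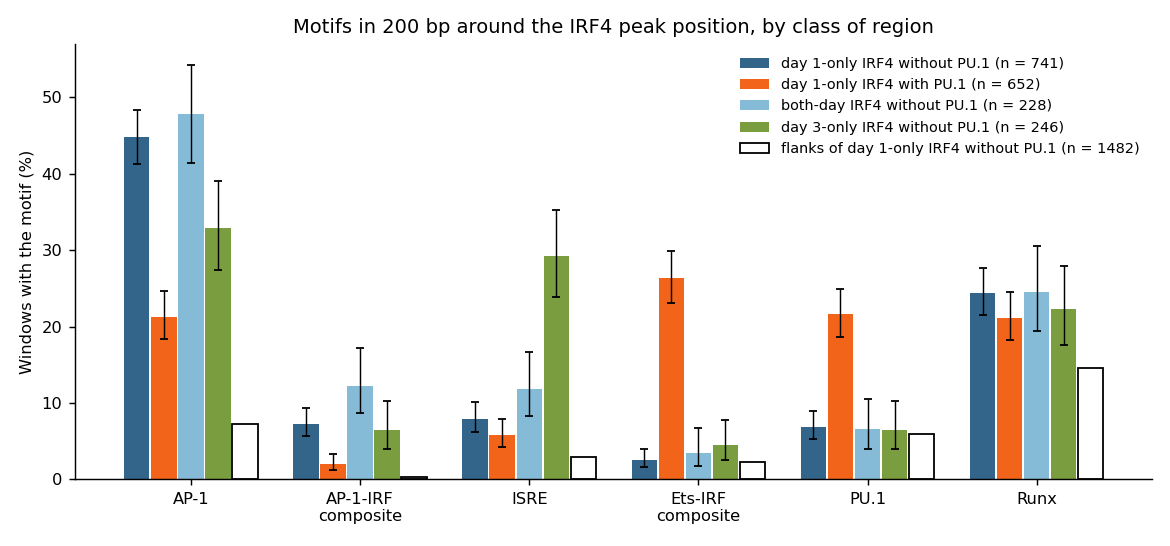
Percentage of 200 bp windows that hold each motif (y axis, with 95% Wilson intervals) for 6 motifs (x axis), in the 741 day 1-only regions without PU.1, 3 other classes of IRF4 region, and flanks 2 kb to either side of the 741 (white). AP-1 was at 44.8% in the 741 regions and 21.3% in day 1-only regions with PU.1, while the Ets-IRF composite element was at 2.56% and 26.4%.

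Other factors' motifs differed from the flanks in fewer cases. Runx sites, bound by a family that acts in lymphocyte activation and development, were in 24.4% of regions and 14.6% of flanks (exact binomial test, adjusted p = 4.12e-06). The call was lost without day 1 replicate 2 or 3 and in lines copied from replicate 1 (10.0 to 12.8 points). Sites of the STAT5 type (TTCNNNGAA), the family that transmits IL-2 signals, were in 11.5% and 6.61% (exact binomial test, adjusted p = 0.00247). In the 430 regions with no call outside day 1 IRF4, the STAT5 excess was 3.95 points and did not pass (adjusted p = 0.128, exact binomial test). Nor did it pass in the stronger 50% of lines (5.25 points), in lines copied from replicate 1 (7.14 points), or without day 1 replicate 2 (6.38 points) or 3 (8.00 points). STAT6-type sites (TTCNNNNGAA), the family downstream of IL-4, were in 7.96% and 5.67% (exact binomial test, adjusted p = 0.152). Runx and STAT5 sites did not pass Fisher's exact test against any of the 3 other classes. Compared with day 3-only regions without PU.1, 2 motifs of B cell factors had lower shares: the octamer ATGCAAAT (1.21% against 4.88%, adjusted p = 0.00984 by Fisher's exact test) and the E-box CAGGTG (15.2% against 22.8%, adjusted p = 0.0447). The E-box call was lost under 12 alternatives and the octamer call under 5.

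With the settings described, the remaining motifs did not pass against the flanks or any class: the EBF1 site TCCCNNGGGA, the cyclic AMP response element TGACGTCA, the GC box GGGCGG, the YY1 site AAGATGGC, the C/EBP site TTGCNNNAA and the control word. The control word was in 1.21% of regions and 2.70% of flanks (exact binomial test, adjusted p = 0.111), and the GC box in 5.67% and 3.10% (adjusted p = 0.0508). Under alternatives the GC box passed against the flanks in 11, the control word in 2 and the STAT6-type site in 1. The control word also passed against day 3-only regions in the 430 regions with no other call (-2.79 points, adjusted p = 0.0295 by Fisher's exact test), and the C/EBP site against both-day regions without day 1 replicate 1 (-5.76 points, Fisher's exact test, adjusted p = 0.0353). In all, 7 of 18 entries (17 motifs and the union) passed against the flanks, 6 against day 1-only regions with PU.1, 4 against day 3-only regions and 0 against both-day regions without PU.1.

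A count of all 2080 words of 6 bases, without any chosen motif, led to the same site. Against the flanks 68 words (3.27% of those tested) were more frequent in the regions and 51 (2.45%) less frequent, by the exact binomial test with adjustment over all words. The first by p was GAGTCA, a part of the AP-1 site, present in 45.1% of regions and 12.3% of flanks. AAATGA was in 42.8% and 19.3%. This word lies in the touching AP-1-IRF element, but that whole element was in only 31 regions (4.18%). TAGTCA (22.5% against 6.75%) and GACTAA (15.5% against 5.26%) share bases with the AP-1 site but do not lie inside TGANTCA. The word TAAATA was among the less frequent ones, in 8.91% of regions and 19.97% of flanks.

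Against day 1-only regions with PU.1, 21 words (1.01%) were more frequent and 35 (1.68%) less frequent (Fisher's exact test with adjustment over all words). Words of the Ets-IRF composite and the PU.1 site led the lower ones: CACTTC was in 13.9% of these regions and 46.8% of those with PU.1, and GAGGAA in 18.5% and 42.6%. Such words are likewise tied to the PU.1 peaks that separated the classes. The higher ones were led by GACTCA, in 43.5% and 22.4%.

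AP-1 content varied within the 741 regions. It was 49.8% in the 430 regions found only in day 1 IRF4 libraries, 43.5% in the 230 called in a day 3 IRF4 library and 33.1% in the 139 called in a PU.1 library, with 47.5% in the 602 not called in one. In the 4 groups of equal size by enrichment in replicate 2, from the lowest, it was 39.0%, 42.1%, 44.4% and 53.8%. Regions copied from replicate 1 and replicate 2 held AP-1 sites in 44.6% and 44.8%. These subsets were cut by the same calls as the choice and overlap one another, and no test was made.

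**Figure D5:**
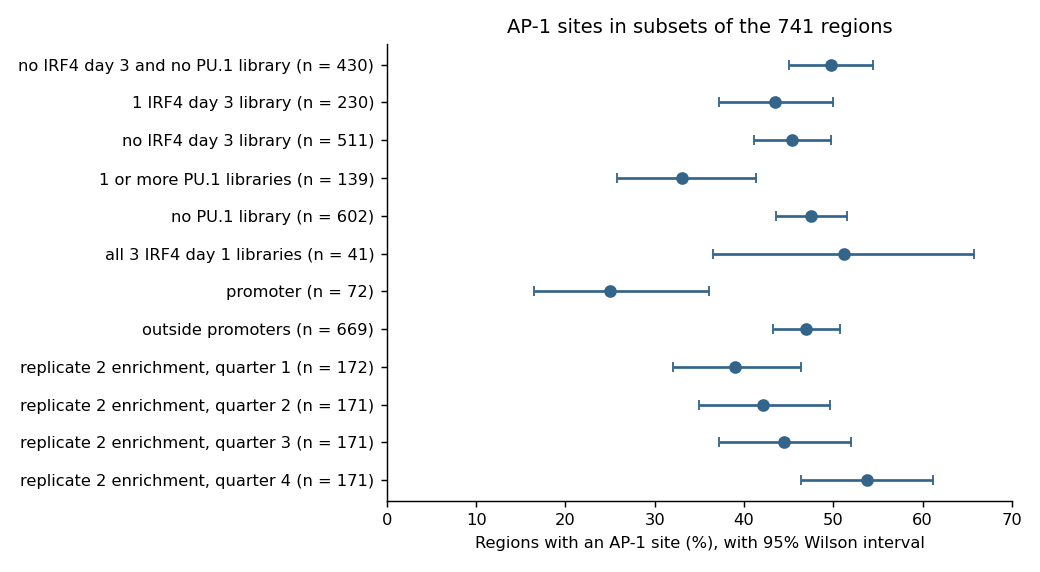
Percentage of regions with an AP-1 site in the 200 bp window (x axis, points with 95% Wilson intervals) in subsets of the 741 regions (y axis, with the number of regions). Promoter regions (18 of 72) and regions called in a PU.1 library (33.1% of 139) had the lowest shares.

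Most of the regions lay away from promoters. Within 1 kb of a transcript start there were 72 (9.72%; 4.00% of the 50 regions left without day 1 replicate 3), in other exons 11 (1.48%), in introns 322 (43.5%) and between genes 336 (45.3%), with a median distance to the nearest start of 17.4 kb. Promoter regions held an AP-1 site in 18 of 72, against 46.9% outside promoters. None of the 12 differences in location from the 3 other classes passed Fisher's exact test after adjustment. The unadjusted p was also above 0.05 in each, the lowest being 0.119 for intergenic regions against the day 3-only class (45.3% against 39.4%). The promoter share differed from that of day 1-only regions with PU.1 by -2.55 points (95% interval -5.91 to 0.731; Fisher's exact test, adjusted p = 0.591). The median G plus C content of the windows was 45%, as in the flanks, and 47% in day 1-only regions with PU.1. On the X chromosome there were 3 of the regions and 13 of the whole list.

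Of 22380 protein-coding genes, 753 (3.36%) held one of the regions or lay within 20 kb of one. For the lists of named genes, which differ in gene length and were not matched for it, counts are given beside that share and have no test. The counts rest on day 1 replicates 2 and 3: without either, the germinal centre list had 2 genes near a region, the antigen presentation list 1 or 0, and the other lists 0. The antigen presentation list also had 1 without day 1 replicate 1, and the interferon list had 2 without day 3 IRF4 replicate 1 or 2 and 0 without day 3 PU.1 replicate 2. Among 19 genes of the B cell receptor and B cell identity, 4 were near a region: Blk, Bank1, Pik3ap1 and Ebf1. The Blk region had enrichments of 38.7 and 50.8 in day 1 replicates 2 and 3 and no call elsewhere. Ebf1, a factor that specifies B cells, held an intronic region (chr11:44445596-44446214) with 54.1 and 24.8, and day 3 replicate 1 called it at 23.7.

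Germinal centre genes were near a region in 5 of 20 cases: Bach2, Pou2af1, Gna13, Cxcr4 and Ccnd3. Pou2af1, the octamer coactivator, held an intronic region with 49.3 and 44.2 in replicates 2 and 3 and 32.3 in day 3 replicate 3. The Cxcr4 region, upstream of the chemokine receptor of the dark zone, had 50.3 and 25.7 and a day 3 PU.1 call of 15.1. In the plasma cell list 4 of 20 were near a region: Zbtb20, Tnfrsf13b, Slamf7 and Edem1. Tnfrsf13b, which encodes the receptor TACI, held an intronic region with 38.7 and 66.3, found in no other library. The Zbtb20 region was likewise called only on day 1 (47.1 and 43.9) and held 2 AP-1 sites, whereas the Edem1 region was called in day 3 replicate 1 (20.6).

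Among NF-kB pathway and activation genes 4 of 20 were near a region: Nfkb1, Nfkbia, Tnfaip3 and Traf1, the last with 2 regions in its introns. The Nfkbia region lay at the start of the gene (0.014 kb upstream) and had 38.7 and 45.6 on day 1 only. Tnfaip3, which encodes the feedback inhibitor A20, had a promoter region of 36.5 and 24.9 that 1 PU.1 library of each day called, at 20.2 and 22.6. One of the 2 Traf1 regions (62.4 and 45.9) was also called by a PU.1 library of each day, and the other (53.1 and 43.2) by none. No AP-1 site was found in the windows of the Nfkb1, Nfkbia and Tnfaip3 regions.

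For receptors of the culture's stimuli, 2 of 15 genes were near a region, and both encode IL-2 receptor chains. The Il2ra region had 53.8 and 53.9 in day 1 replicates 2 and 3 and held the AP-1-IRF element shown above. The Il2rb region had 36.2 and 56.3 and held an ISRE. Neither was called in a day 3 IRF4 or a PU.1 library. Of 17 antigen presentation and costimulation genes, 2 were near a region: Cd86, by the Ildr1 region (24.4 and 42.1 in day 1 replicates 1 and 3, and 20.8 in day 3 replicate 1), and Cd274, which encodes PD-L1, by a promoter region with an ISRE (36.5 and 39.4, and 25.1 in day 3 replicate 2).

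Interferon-stimulated genes had 1 of 23 near a region, Isg15, whose promoter region held 3 ISREs. It had the low day 1 values of 26.8 and 24.8 and a similar day 3 replicate 3 value of 25.6. Day 3 PU.1 replicate 1 also called it, at 15.2. None of 14 genes of AP-1 factors and their partners was near a region. Genes of other cell types were 1 of 15 for T and NK cells (Tbx21, which B cells can also express), 1 of 15 for myeloid cells (Itgam) and 0 of 15 for neurons and liver.

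Several genes carried more than 1 of the regions. There were 54 genes with 2 or more and 11 with 3 or more. Rbm47, an RNA-binding protein gene 156.6 kb long, held 4, and 2 of those had an AP-1 site. Elmo1 held 3, all of them called only in day 1 IRF4 libraries, and Foxp1, a transcription factor gene of B cells, held 3 of which none was called only there. Gpr15 had 3 regions within 20 kb and each held an AP-1 site. The 4 regions at the end of chromosome 13, near 3110070M22Rik, 4833420G17Rik and Gm7120, held no AP-1 site, and each was also called in another library. Of the 753 genes near a region, 186 (24.7%) were also near another day 1 IRF4 line, which was 11.1% of the 1673 genes near such lines. Of all 22380 protein-coding genes, 1673 were near such a line and 753 (3.36%) near one of the regions. Gene length was not matched, and the overlap has no test. For 182 regions (24.6%) there was no protein-coding gene within 20 kb.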

How the data were processed

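IRF4 and PU.1 ChIP-seq peak lists of 10 libraries and 4 group lists were used. Replicate numbers follow the sample descriptions, and the sample titles carry other numbers. The titles of day 3 IRF4 replicate 3 and day 3 PU.1 replicate 1 carry a pair of numbers each. The labels do not say whether these pool more than 1 library. Reads were mapped to mm9 and enrichment over an input was computed with QuEST, per the series' design text, and mm9 is also named in the submitters' processing notes. For the aligner, the version of QuEST and the thresholds: not given in the sources used here. The deposited enrichment of each peak is a ratio or fold over input by the authors, and the files used here hold no read counts, so depth is unknown and intervals cover counting of regions only. Each group list could be rebuilt exactly from the library files (lines with a peak of another library within 200 bp), which gave the library each line was copied from. Deposited positions were read as 1-based, which the files do not state.

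Sequences came from the NCBIM37 (mm9) genome and genes from GENCODE M1. Windows of 200 bp were centred on the peak position, with flanks centred 2 kb away. Tests were Fisher's exact test between classes and an exact binomial test against flanks, both two-sided, with Benjamini-Hochberg adjustment and a threshold of 0.05, in Python 3.11.15 with scipy 1.17.1, and were tested on simulated data. Regions named were those called in all 3 day 1 libraries and no other, the 10 highest per source library, those within 20 kb of a listed gene, up to 10 with an AP-1-IRF element called in day 1 libraries only, and those nearest the 200 bp limit. The sequences shown were picked from these after their values were seen. The members, motifs and gene lists were chosen with earlier results of these data known. Repeats were not marked in the genome used, so no repeat share is given. A gene of the lists is not reported here.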

Additional observations from a re-analysis of the deposited data

How the results depend on the processing

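No paired analysis was possible because the tests compare sets of regions and not libraries. Over 899 values under alternatives, 732 kept their direction and side of the threshold (or stayed within 1.5 times or the interval), 104 moved, 60 fell short of the threshold, 3 newly passed it and 0 reversed. These cover the motif differences the text gives; over all 18 motif entries, 22 calls in 7 comparisons appeared only under alternatives, 11 of them the GC box against flanks. Leaving out each library in turn gave 47 to 866 regions and 43 to 848 genes near them. The motifs that differed numbered 1 to 6 against day 1-only regions with PU.1, 0 to 3 against both-day regions, 1 to 4 against day 3-only regions and 1 to 8 against flanks. The AP-1 difference ran from 21.8 to 31.3 points against regions with PU.1 and from 5.40 to 15.3 against day 3-only regions, and the AP-1-IRF difference against regions with PU.1 from 3.87 to 13.9. Words higher and lower than in flanks numbered 1 to 80 and 0 to 63, and against regions with PU.1 0 to 34 and 2 to 37. Leaving out day 1 replicate 2 or 3 left few regions, and 1 motif against flanks. Leaving out day 3 replicate 3 also gave 1 motif against day 3-only regions, with 836 regions left. Day 1 replicate 1 and day 1 PU.1 replicate 2 gave the higher counts against both-day regions.

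Keeping regions with no call in any day 3 IRF4 or PU.1 library left 430, with 445 genes and 36 words higher and 22 lower than in flanks. The stronger 50% of lines left 324, with 305 genes, 26 and 6 words against flanks, 8 and 16 against regions with PU.1, and 4, 3 and 1 motifs against flanks, regions with PU.1 and day 3-only regions. Its AP-1-IRF difference was 5.01 (adjusted p = 0.222) and its AP-1 difference from day 3-only regions 12.0 (adjusted p = 0.312, Fisher's exact test). Lines copied from day 1 replicate 1 (56 regions) gave 1, 3 and 1 such motifs and an AP-1 difference of 11.7 from day 3-only regions (Fisher's exact test, adjusted p = 0.767). Fewer regions were tested in these 3 settings. A window of 100 bp gave 2 motifs against day 3-only regions and 7.45 for AP-1 there (Fisher's exact test, adjusted p = 0.192), and whole intervals gave 18 lower words against regions with PU.1. A shared distance under 100 bp gave 2 motifs against both-day regions, and AP-1 sites with C or G in the middle, an alternative chosen after seeing the data, gave 1. Where no construction is named, the cause was not tested. Distances of 5 and 50 kb gave 481 and 1335 genes.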
